A study of Mus musculus with 3 samples.

Results

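The TNF receptor superfamily and its ligands were examined in 5TGM1.BRE cells, a mouse multiple myeloma line that is resistant to bortezomib, an inhibitor of the proteasome. Members were chosen by symbol: every gene named Tnfrsf or Tnfsf followed by a number, plus 13 family genes with other names (Cd27, Cd40, Cd40lg, Cd70, Fas, Fasl, Ltbr, Lta, Ltb, Tnf, Ngfr, Eda2r and Edar). The rule found 44 of the 24467 genes in the tables, 27 receptors and 17 ligands. Polyadenylated RNA was sequenced from 3 samples in 1 group. The cells came back from the bone marrow of C57BL/KaLwRij mice in which they had engrafted, and were kept in 10 nM bortezomib in medium with 20% serum. They had been off the drug for at least 72 h when RNA was taken from 10000000 cells per sample. All samples are of 1 line. The sensitive parent was not analysed here, so levels within the resistant line are given and no effect of resistance or of the drug was measured. The text on cell type for replicate 1 does not mention culture in bortezomib, unlike that for replicates 2 and 3. Its title calls the cells bortezomib resistant without naming culture in the drug, which its growth protocol does mention. The labels do not say whether the samples were separate cultures, so the SDs and p-values below cover the spread of these 3 samples alone, and that spread may be technical.

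The libraries held 45705994 to 62303493 counts, and replicate 3 stood apart from the other 2. A chi-square test of homogeneity per degree of freedom gave 4.0 for replicates 1 and 2, against 65.1 and 44.4 for the pairs with replicate 3. Across 11235 genes, the log2 fold change of replicate 3 over the other 2 libraries had a Spearman correlation of -0.59 with transcript length, a description over genes that share the same libraries. The label was borne out by its defining genes: all 6 plasma cell markers were at or above 1 CPM (counts per 1000000 counts of the library) in every library. None of 8 T and NK cell, 8 myeloid, 7 stromal and endothelial or 4 erythroid markers reached that level in all libraries. Among B cell markers, Fcer2a and Ms4a1 did, while Pax5 had 40, 20 and 5 counts in replicates 1, 2 and 3. Fcer2a, with 404, 74 and 246 counts, was called higher in replicate 1 (log2 fold change 1.12, edgeR adjusted p = 0.00315) and lower in replicate 2 (-1.72, adjusted p = 0.000394) when each library was set against the other 2.

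TNF family ligands are mostly trimeric proteins on the cell surface that are often cut off into soluble form, and each engages 1 or a few receptors. Receptors with a death domain can start apoptosis, and many of the others recruit TRAF adaptors and activate NF-kappaB. In the B lineage, the receptors for the cytokines BAFF and APRIL carry survival signals, and in mice the receptor encoded by Tnfrsf17 supports long-lived plasma cells of the bone marrow. Bone disease in myeloma involves a further pair of the family, RANKL and its secreted decoy osteoprotegerin.

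Receptor genes reached 1 CPM in about the same share as all genes did, and ligand genes in a far smaller share. Of the 44 members, 13 were at 1 CPM or more in all 3 libraries (29.5%, against 40.9% of all genes), and 14 without replicate 3. These were 12 of 27 receptors (44.4%) and 1 of 17 ligands (5.9%), each against the same 40.9% of all genes. The 1 ligand was Tnfsf9. Another 12 members had no count in any library (27.3%, against 33.5% of all genes), and 19 lay in between. Those without counts were 4 receptors (14.8% of receptors) and 8 ligands (47.1% of ligands). Summed over members, without regard to length, receptors took 241, 233 and 227 CPM in replicates 1, 2 and 3, with a mean of 234 ± 6.78 CPM (SD, n = 3). The ligands together took 3.84, 3.79 and 4.63 CPM, with a mean of 4.08 ± 0.473 CPM (SD, n = 3). In every library the ligand sum was thus far below the receptor sum. In bulk RNA, fewer cells that express a gene and less RNA of it per cell cannot be told apart. The 4 receptors with most counts, Tnfrsf13b, Ltbr, Tnfrsf13c and Tnfrsf1a, made up 77.7 to 79.1% of the receptor counts.

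**Figure D1:**
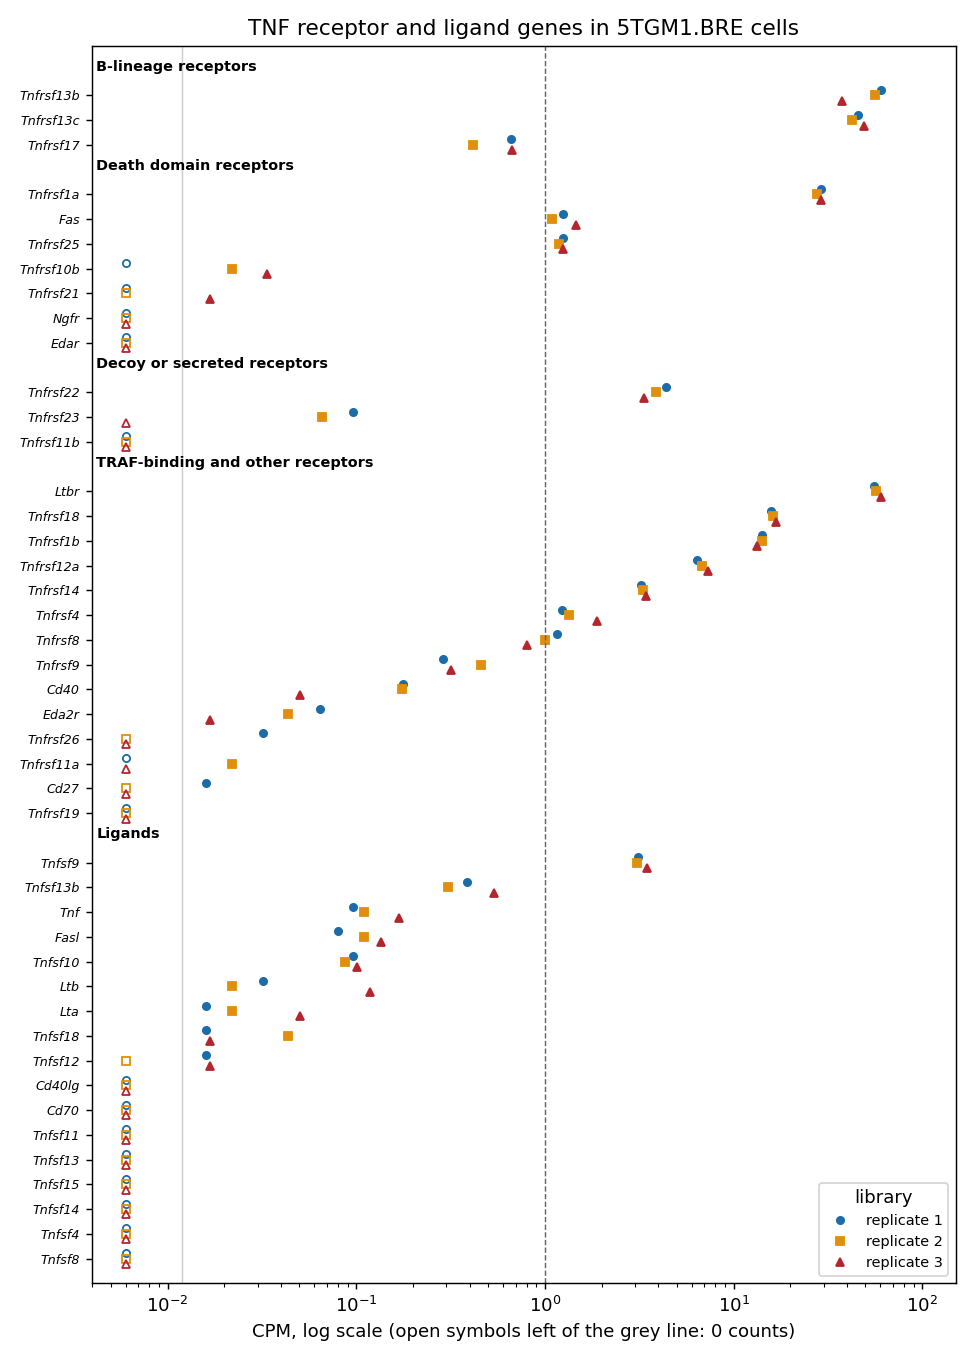
Level of each of the 44 members in CPM on a log axis, 1 symbol per library, grouped by role and ordered by mean within a role; open symbols left of the grey line are libraries with 0 counts and the dashed line is 1 CPM. Receptors spread from 0 to 60.7 CPM, whereas Tnfsf9, at 3.08 to 3.48 CPM, is the 1 ligand right of the dashed line in all libraries.

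Levels were compared between genes in TPM, in which counts are divided by the union of a gene's exons and rescaled to a total of 1000000. In this order the 13 members at 1 CPM or more were Ltbr, Tnfrsf13c, Tnfrsf13b, Tnfrsf1a, Tnfrsf18, Tnfrsf1b, Tnfrsf12a, Tnfsf9, Tnfrsf14, Tnfrsf4, Tnfrsf22, Fas and Tnfrsf25. Tnfrsf17, which missed the limit in CPM, passed 1 TPM in all libraries and with a mean of 2.23 TPM would stand between Tnfrsf22 and Fas, at 2.89 and 1.92 TPM. The ranges over libraries overlapped between 5 pairs of neighbours: Tnfrsf13c and Tnfrsf13b, Tnfrsf1a and Tnfrsf18, Tnfrsf1b and Tnfrsf12a, Tnfrsf4 and Tnfrsf22, and Fas and Tnfrsf25. With the longest transcript as the length, Tnfrsf18 moved above Tnfrsf1a, Tnfrsf12a above Tnfrsf1b and Tnfrsf14 above Tnfsf9, while the first 3 and last 4 places stayed. Places between near neighbours therefore depend on the length taken.

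The receptors for BAFF and APRIL were divided: those encoded by Tnfrsf13b and Tnfrsf13c were among the highest of the family and the one encoded by Tnfrsf17 was far below them. Tnfrsf13b encodes TACI, which binds both cytokines, at chr11:61126755-61149372 (plus strand, GRCm38). Tnfrsf13c, at chr15:82221743-82224369 (minus strand), encodes the BAFF receptor. Tnfrsf17, at chr16:11313812-11320074 (plus strand), encodes the B cell maturation antigen, which binds APRIL best. Their promoters (250 bases before to 50 bases after the start site, RefSeq, GRCm38.p6) are shown. The 3 genes encode receptors for BAFF, APRIL or both and stood at unequal levels. Each is read along the gene's own strand, with CG dinucleotides in capitals.
Tnfrsf13b promoter, chr11:61126505-61126804, plus strand: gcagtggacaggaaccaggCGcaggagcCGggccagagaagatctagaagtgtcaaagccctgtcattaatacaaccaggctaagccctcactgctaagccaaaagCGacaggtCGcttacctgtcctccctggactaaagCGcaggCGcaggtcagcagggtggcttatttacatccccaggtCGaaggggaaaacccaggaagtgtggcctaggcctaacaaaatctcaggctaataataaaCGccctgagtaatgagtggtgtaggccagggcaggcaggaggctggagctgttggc
Tnfrsf13c promoter, chr15:82224331-82224630, minus strand: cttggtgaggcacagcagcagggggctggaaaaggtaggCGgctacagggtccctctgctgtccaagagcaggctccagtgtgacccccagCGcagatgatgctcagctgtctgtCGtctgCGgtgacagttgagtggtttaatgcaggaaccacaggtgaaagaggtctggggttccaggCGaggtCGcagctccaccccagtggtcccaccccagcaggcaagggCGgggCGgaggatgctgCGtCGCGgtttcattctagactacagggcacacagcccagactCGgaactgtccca
Tnfrsf17 promoter, chr16:11313559-11313858, plus strand: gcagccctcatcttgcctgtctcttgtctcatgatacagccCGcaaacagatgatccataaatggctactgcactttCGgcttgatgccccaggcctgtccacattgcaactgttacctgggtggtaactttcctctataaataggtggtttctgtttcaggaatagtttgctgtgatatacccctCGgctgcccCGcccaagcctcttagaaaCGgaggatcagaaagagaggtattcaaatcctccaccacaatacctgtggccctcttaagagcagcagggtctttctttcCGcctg

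The Tnfrsf13b, Tnfrsf13c and Tnfrsf17 promoters held 8, 12 and 6 CG dinucleotides, against a median of 7 over all 32851 promoters of the table. A search on both strands for the letters TATAAA found 1 match among them, 114 bases before the start site of Tnfrsf17. Those letters occur in 13.6% of all promoters and in 7 of the 38 entries of members. The octamer ATTTGCAT (1.7% of all promoters), the Ets-IRF composite element (2.7%) and the NF-kappaB consensus (8.5%) had no match in the 3 promoters. Among the 38 entries, which cover 34 members, these motifs matched 1, 0 and 4. The NF-kappaB consensus was found in the entries of Ltb, Tnfrsf8, Tnfrsf9 and Tnfrsf25. Entries of members at 1 CPM or more had a median of 12 CG dinucleotides (12 entries, range 2 to 23), and those of the other members a median of 7 (26 entries, range 3 to 43). The ranges overlap widely.

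Tnfrsf13b had 3752, 2562 and 2229 counts in replicates 1, 2 and 3, or 60.2, 56.1 and 37.5 CPM. Replicate 3 was the low library. Tnfrsf13c had 2850, 1936 and 2919 counts, or 45.7, 42.4 and 49.1 CPM, and was highest in replicate 3. Tnfrsf17 had 41, 19 and 40 counts, or 0.658, 0.416 and 0.673 CPM. With few counts its spread is wide, and its gene model is the shortest of the 3, so that per length it reached 2.61, 1.63 and 2.46 TPM. Per kilobase, the log2 ratio of Tnfrsf13b to Tnfrsf17 was 4.66 ± 0.64 (SD, n = 3), a 25.4-fold difference, and that of Tnfrsf13c to Tnfrsf17 was 5.00 ± 0.30 (SD, n = 3), a 31.9-fold difference. Both ratios were above 0 in 3 of 3 libraries. For each, flipping signs over n = 3 libraries (exact permutation test, two-sided) gave p = 0.25, which no pattern over 3 libraries can go below, and 0.3 when adjusted by Benjamini-Hochberg for the 6 ratios with a value. Tnfrsf13b stood at 0.951 and 0.956 times Tnfrsf13c per kilobase in replicates 1 and 2, and at 0.551 times in replicate 3.

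Their cytokines had few or no transcripts. Tnfsf13b, which encodes BAFF, had 24, 14 and 32 counts, with a mean of 0.410 ± 0.118 CPM (SD, n = 3). Tnfsf13, which encodes APRIL, had no count in any library, so that its level could be at most 0.0179 CPM given the 167411705 counts of the 3 libraries. Over pooled counts per kilobase, Tnfsf13b was at least 5.56-fold higher than Tnfsf13, with 3 counts over the group taken for Tnfsf13. The annotation joins Tnfsf12 and Tnfsf13 in a further gene, Tnfsfm13, which shares 48.3% of the exon length of Tnfsf12 and 60.0% of that of Tnfsf13 and itself had 0 counts. The handling of reads shared by overlapping genes was not given in the sources used here, and the levels of Tnfsf12 and Tnfsf13 are therefore uncertain. Sdc1, whose heparan sulfate chains bind APRIL, was at 539 ± 8.62 CPM (SD, n = 3).

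Of the 7 death domain receptors, 3 were at 1 CPM or more in all libraries (42.9%, against 40.9% of all genes). Tnfrsf1a, the main receptor for TNF, had 29.1, 27.8 and 29.2 CPM in replicates 1, 2 and 3, an even level with a mean of 28.7 ± 0.806 CPM (SD, n = 3). Fas, the receptor for FasL, was far lower at 1.25, 1.09 and 1.46 CPM, with 78, 50 and 87 counts. Tnfrsf25, the receptor for the cytokine encoded by Tnfsf15, had 1.25, 1.18 and 1.25 CPM. In contrast, Tnfrsf10b, the receptor through which TRAIL kills mouse cells, had 0, 1 and 2 counts, and Tnfrsf21 had 0, 0 and 1. Ngfr, a receptor for neurotrophins, and Edar, a receptor for ectodysplasin, had 0 counts in every library. Per kilobase, Tnfrsf1a exceeded Tnfrsf1b, the TNF receptor without a death domain, 3.05-fold, at a log2 ratio of 1.61 ± 0.081 (SD, n = 3). It exceeded its ligand gene Tnf 150-fold, at a log2 ratio of 7.23 ± 0.41 (SD, n = 3), in cells that had 6, 5 and 10 Tnf counts. Each of these ratios was above 0 in 3 of 3 libraries, and the exact sign-flip permutation test again gave p = 0.25.

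Of the 3 decoy or secreted receptors, 1 was at 1 CPM or more in all libraries (33.3%, against 40.9% of all genes). Tnfrsf22, a mouse TRAIL decoy receptor on chromosome 7, had 4.40, 3.89 and 3.33 CPM, while its neighbour and close relative Tnfrsf23 had 6, 3 and 0 counts. The 2 genes lie 16.1 kb apart and resemble each other, so how the counting shared reads between them leaves both values uncertain. Tnfrsf26, a related gene 6.08 kb from Tnfrsf22 on the other side, had 2, 0 and 0 counts. TRAIL itself, encoded by Tnfsf10, had 6, 4 and 6 counts. Tnfrsf11b, which encodes osteoprotegerin, the secreted decoy for RANKL, had 0 counts, and so had the RANKL gene Tnfsf11. Tnfrsf11a, which encodes their signalling counterpart RANK, had 0, 1 and 0 counts.

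Of the 14 receptors that bind TRAFs or belong to no other group, 6 were at 1 CPM or more in all libraries (42.9%, against 40.9% of all genes). Ltbr, the lymphotoxin beta receptor and a trigger of the noncanonical NF-kappaB pathway, was the highest member per length. It had 3446, 2612 and 3604 counts, or 55.3, 57.1 and 60.7 CPM, and 75.9, 77.5 and 76.9 TPM, and its gene is at chr6:125306571-125313885 (minus strand). Its libraries were close together and its lowest TPM was above the highest of any other member. Tnfrsf18, which encodes GITR, had 15.8, 16.2 and 16.7 CPM. Annotated exons of an antisense gene, Gm16008, cover 27.2% of its exon length, and with the strand setting unknown their reads cannot be told apart. Tnfrsf1b had 14.2, 14.1 and 13.3 CPM, and Tnfrsf12a, the receptor for TWEAK, had 6.37, 6.76 and 7.31 CPM. Tnfrsf14, which binds the ligand LIGHT and the inhibitory receptor BTLA, had 3.23, 3.30 and 3.43 CPM. Tnfrsf4, which encodes the costimulatory receptor OX40, had 1.24, 1.33 and 1.89 CPM and was highest in replicate 3. Tnfrsf8, the gene for a receptor known as a lymphoma marker, had 1.16, 1.01 and 0.808 CPM and missed the limit in replicate 3.

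Cd40 and Cd27, costimulatory receptors of B cells and of T and memory B cells, were near or at the floor. Cd40 had 11, 8 and 3 counts, with a mean of 0.134 ± 0.0723 CPM (SD, n = 3). Per kilobase it was 719-fold below Ltbr, at a log2 ratio of -9.49 ± 1.1 (SD, n = 3, exact sign-flip permutation p = 0.25), which replicate 3 lowered, since the mean was -8.85 without it. Cd27 had 1, 0 and 0 counts and its ligand gene Cd70 had none. Tnfrsf9, the receptor for the product of Tnfsf9, had 18, 21 and 19 counts, or 0.356 ± 0.0909 CPM (SD, n = 3). Eda2r, another ectodysplasin receptor, had 4, 2 and 1 counts, and Tnfrsf19, an orphan receptor of this family, had 0.

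Among the ligands, Tnfsf9 alone passed 1 CPM in all libraries. It had 193, 141 and 207 counts, or 3.10, 3.08 and 3.48 CPM, and made up 75.3 to 81.5% of all ligand counts. It encodes a costimulatory ligand that antigen-presenting cells show to T cells, from chr17:57105325-57107757 (plus strand). An antisense gene, Gm11110, covers 14.9% of its exon length and had 81, 60 and 83 counts, so part of the Tnfsf9 counts may belong to either gene. Tnf, Ltb and Lta, neighbours within the MHC region of chromosome 17, were all low. Ltb had 2, 1 and 7 counts and Lta 1, 1 and 3, and together their products form the ligand of the lymphotoxin beta receptor. The log2 ratio of Ltb to Lta per kilobase was 0.61 ± 0.65 (SD, n = 3) and was above 0 in 2 of 3 libraries (exact sign-flip permutation p = 0.5). At so few counts an order of these genes was not detectable. Fasl had 5, 5 and 8 counts, Tnfsf18 had 1, 2 and 1, and Tnfsf12, which encodes TWEAK, had 1, 0 and 1. Cd40lg, Cd70, Tnfsf4, Tnfsf8, Tnfsf11, Tnfsf13, Tnfsf14 and Tnfsf15 had no count in any library, with the same upper limit of 0.0179 CPM. For Tnfsf13 this limit holds only if reads shared with Tnfsfm13 were kept in the counting, which is not known.

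The expressed receptors were thus mostly found without a transcript of their own ligand at 1 CPM. Ltbr was at 57.7 ± 2.72 CPM while Tnfsf14, Lta and Ltb were at 0, 0.0295 and 0.0573 CPM (means, n = 3). Tnfrsf18 was at 16.2 ± 0.461 CPM and Tnfsf18 at 0.0255 CPM, Tnfrsf12a at 6.81 ± 0.469 CPM and Tnfsf12 at 0.0110 CPM (SD, n = 3). The level of Tnfsf12 is uncertain, since the gene Tnfsfm13 shares 48.3% of its exon length. For Tnfsf9 the reverse held, since its receptor gene Tnfrsf9 was below the limit. Of the fixed pairs, 4 of 10 gave no ratio because a gene had 0 counts in at least 1 library.

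Members lie in clusters, and some neighbours within them differed in level while others were alike. Among the alike ones, Ltb, Tnf and Lta were all low, and Tnfsf15 and Tnfsf8 had no counts. Chromosome 4 holds 9 members and chromosome 17 holds 8. On chromosome 4, Tnfrsf4 and Tnfrsf18 are 9.55 kb apart, and Tnfrsf18 was 11.4, 10.9 and 7.93 times Tnfrsf4 per kilobase in replicates 1, 2 and 3. On chromosome 6, Ltbr and Tnfrsf1a are 35.5 kb apart and were both among the highest members, while Cd27, 69.6 kb from Ltbr on the other side, was at the floor. On chromosome 17, Tnfsf9 lies 38.2 kb from Cd70, which is followed after 39.7 kb by Tnfsf14, and of these Tnfsf9 alone had counts.

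Each library was set against the other 2 to see which members differ between samples of the line. Of the 44 members, 17 passed the filter on low counts and were tested with edgeR's quasi-likelihood test, with Benjamini-Hochberg adjustment over all 11308 genes. In replicate 3, 4 of the 17 passed an adjusted p of 0.05 (23.5%, against 51.6% of all genes), 3 higher and 1 lower, where 24.8% and 26.8% of all genes were higher and lower. The median log2 fold change was 0.10 over the 17 members and 0.00 over all genes. The spread in this test comes from the gap between the other 2 libraries, with 1 residual degree of freedom. When replicate 1 or 2 is tested, that gap includes replicate 3. The SE of Ltbr was 0.191 and 0.210 in those tests, against 0.043 in the test of replicate 3. An absence of calls for replicates 1 and 2 therefore does not show that members are level there. Since 51.6% of all genes passed in replicate 3, a call there says that this library differs from the other 2 samples and does not set a member apart from other genes. In replicate 1 and in replicate 2, no member passed by edgeR with TMM scaling or by DESeq2, and none had an unadjusted p under 0.05 in either. With the trend on length removed, Tnfrsf13b had a log2 fold change of 0.40 in replicate 1 and was not called. In the edgeR test with TMM scaling this log2 fold change was 0.35. There, 0.0796% of all genes passed with edgeR in replicate 1 (0.0265% higher, 0.0531% lower) and 0.0531% in replicate 2 (0.0265% in each direction).

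Tnfrsf13b was the member called lower in replicate 3. It had 37.5 CPM there, against 60.2 and 56.1 CPM in replicates 1 and 2, with no overlap. The fitted log2 fold change was -0.60 ± 0.05 (SE), or 0.658 times the level of the other 2 libraries. By log2 fold change it ranked 225th from the lowest of 11308 genes. With the trend on length removed the log2 fold change was -0.70, and with DESeq2 it was -0.61, and the gene was called in both, so the difference was as large without the length trend.

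**Figure D2:**
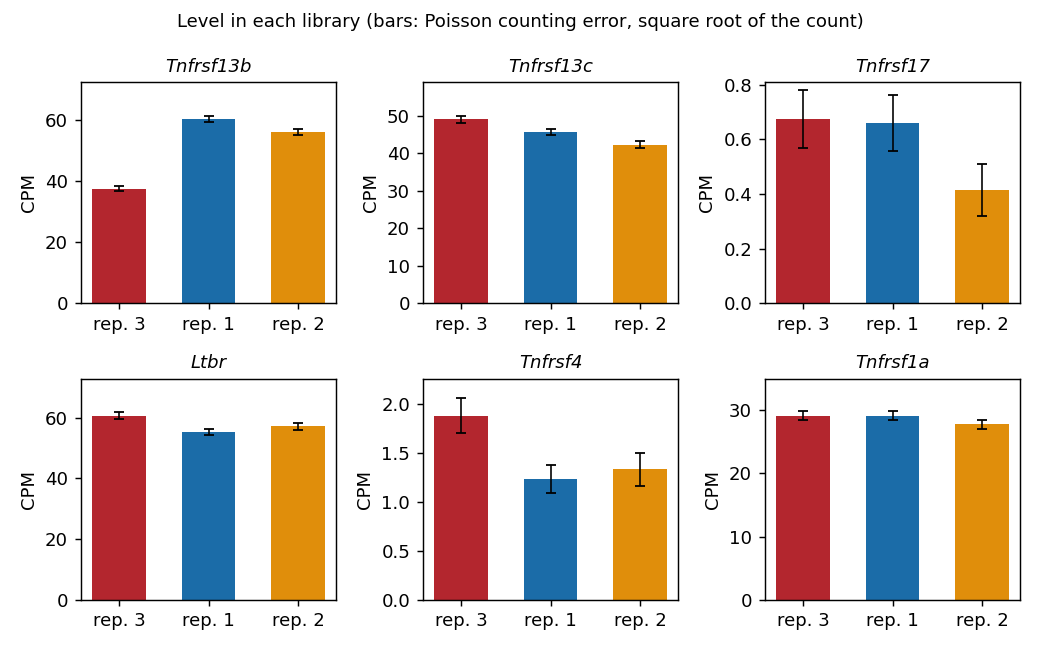
CPM of 6 receptor genes in replicate 3 and in replicates 1 and 2, with bars for the Poisson counting error of each count. Tnfrsf13b is at 37.5 CPM in replicate 3, below 60.2 and 56.1 CPM in the other libraries, whereas Tnfrsf13c, Ltbr and Tnfrsf4 are highest in replicate 3 and Tnfrsf1a is level.

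The 3 members called higher were Tnfrsf4, Tnfrsf13c and Ltbr. Tnfrsf4 had 1.89 CPM in replicate 3, against 1.24 and 1.33 CPM in replicates 1 and 2, a log2 fold change of 0.59 ± 0.19 (SE, edgeR adjusted p = 0.00557). The log2 fold changes of Tnfrsf13c and Ltbr were smaller, at 0.19 ± 0.05 (SE, adjusted p = 0.00144) and 0.14 ± 0.04 (SE, adjusted p = 0.00291). With the trend on length removed these 3 were no longer called: Tnfrsf4 had a log2 fold change of 0.35 (adjusted p = 0.138), Tnfrsf13c of 0.02 (adjusted p = 0.841) and Ltbr of 0.00 (adjusted p = 0.994). DESeq2 called neither Tnfrsf13c (adjusted p = 0.131) nor Ltbr (adjusted p = 0.212), and gave no adjusted p for Tnfrsf4. Once the trend was removed, Tnfrsf13b was the 1 member called, where 33% of all genes were, 16.5% in each direction.

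**Figure D3:**
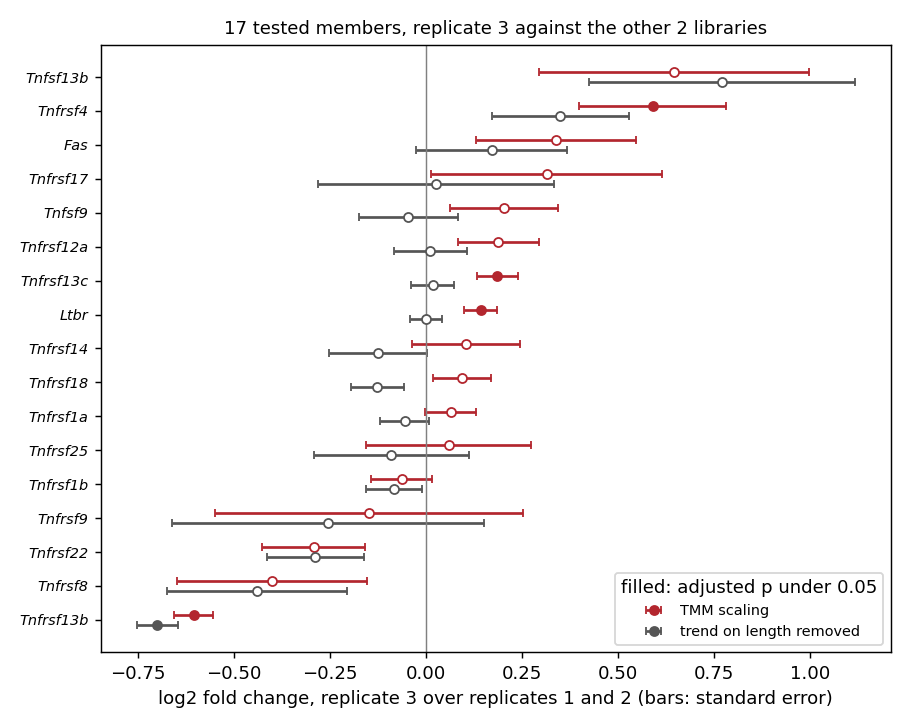
Log2 fold change of replicate 3 over replicates 1 and 2 for the 17 tested members with its standard error, by edgeR with TMM scaling (red, upper) and with the trend on transcript length removed (grey, lower); filled points passed an adjusted p of 0.05. Tnfrsf13b, at -0.60 and -0.70, is filled under both, while Tnfrsf4, Tnfrsf13c and Ltbr are filled with TMM scaling alone.

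The other 13 tested members did not pass. Tnfsf13b had 0.539 CPM in replicate 3, against 0.385 and 0.306 CPM in the other libraries, a log2 fold change of 0.64 ± 0.35 (SE, adjusted p = 0.113). Tnfrsf22, at -0.29 ± 0.13 (SE, adjusted p = 0.0577), and Tnfrsf8, at -0.40 ± 0.25 (SE, adjusted p = 0.166), had lower values in replicate 3. Log2 fold changes of Tnfrsf1a, Tnfrsf1b, Tnfrsf18, Tnfrsf14 and Tnfrsf25 lay between -0.06 and 0.11. For Tnfrsf1a, Tnfrsf18, Tnfrsf14, Tnfrsf25 and Tnfsf9 the sign turned once the trend on length was removed, without a call either way.

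The signalling genes that act below these receptors were broadly present. Of 22 adaptors and proximal signalling genes, 21 were at 1 CPM or more in all libraries (95.5%, against 40.9% of all genes). The highest per length were Casp8, the initiator caspase of death receptors, at 115 ± 12.7 TPM, Map3k7, the kinase TAK1, at 107 ± 12.9 TPM, and its partner Tab2 at 51.5 ± 7.46 TPM (SD, n = 3 for each). Of the TRAF genes, Traf6, Traf3, Traf4 and Traf2 were at means of 24.5, 22.2, 19.9 and 16.9 TPM, and Traf1 was at 0.659 TPM. Traf5, with 12, 5 and 13 counts, was the 1 gene below the limit. The death domain adaptors Tradd and Fadd were at 37.7 and 18.7 TPM and Cflar, which holds Casp8 in check, was at 6.77 TPM. Map3k14, the kinase of the noncanonical NF-kappaB pathway, was at 2.16 ± 0.181 TPM (SD, n = 3). In replicate 3, the 21 tested genes had a median log2 fold change of -0.10 by edgeR, against 0.00 over all genes. Single genes ranged from -0.37 for Traf3 to 0.26 for Tradd in that test. With the trend on length removed, the median of these genes was 0.00, which does not show that each gene was level.

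**Figure D4:**
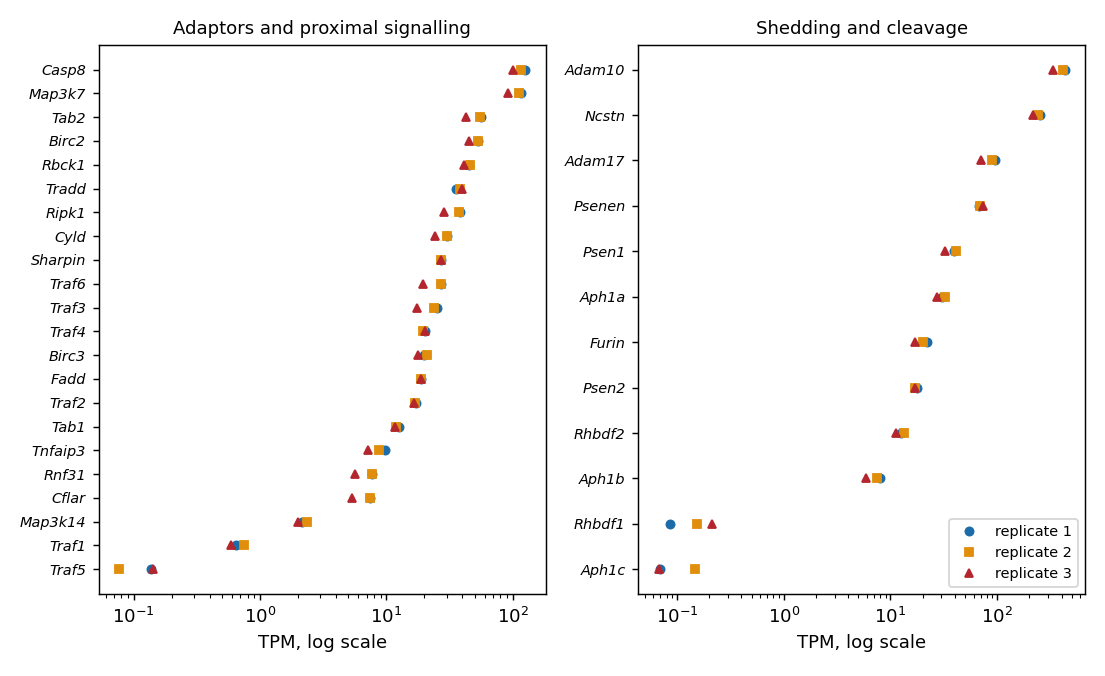
TPM on a log axis of 22 adaptor and signalling genes (left) and 12 genes for shedding and cleavage of family members (right), 1 symbol per library. Casp8 and Adam10 lead their panels, and Traf1, Traf5, Rhbdf1 and Aph1c lie below 1 TPM.

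Genes for the proteases that release family members from the surface were also present. Of these, 10 of 12 were at 1 CPM or more in all libraries (83.3%, against 40.9% of all genes). Adam10, a sheddase of TACI in humans, was at 393 ± 55.2 TPM, Ncstn, a subunit of the gamma-secretase that trims the B cell maturation antigen, at 237 ± 19.8 TPM, and Adam17, the sheddase of TNF and its receptors, at 85.2 ± 12.6 TPM (SD, n = 3 for each). Furin, which cuts BAFF and APRIL, was at 19.7 TPM. The regulators of Adam17 differed, with Rhbdf2 at 12.4 TPM and Rhbdf1 at 0.151 TPM. Aph1c, with 7, 11 and 7 counts, has a near-identical copy in Aph1b, so both are uncertain. In replicate 3, the 10 tested protease genes had a median log2 fold change of -0.12 by edgeR, against 0.005 over all genes. Without the trend on length their median was -0.091, against 0.005 over all genes. Of 11 further family genes and surface partners, 4 were at 1 CPM or more in all libraries (36.4%, against 40.9% of all genes). These were Sdc1 at 443 TPM, Lgals9 at 77.8 TPM, Relt at 6.97 TPM and Tnfaip8 at 3.84 TPM. Eda, the ectodysplasin gene, and Pglyrp1 had 0 counts, and the Tnfrsf14 partners Btla and Cd160 had 11, 5 and 5 and 1, 1 and 0 counts. In replicate 3, the 6 of these genes tested with edgeR had a median log2 fold change of 0.021, against 0.005 over all genes. After removal of the trend on length their median was 0.01, again against 0.005 over all genes.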

How the data were processed

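Polyadenylated RNA of 3 samples in 1 group was measured. The authors deposited raw counts per gene symbol, 1 table per sample with no header. Per the submitters' processing notes, bcl2fastq, cutadapt 4.2 and STAR were used with genome mm10. What program counted reads, on which annotation and strand, was not given in the sources used here. Totals for replicates 1, 2 and 3 were 62303493, 45705994 and 59402218. The upper limit for a gene without counts was set at 3 counts (0.0482, 0.0656 and 0.0505 CPM). It covers counting error only, as PCR copies are no independent molecules. CPM was computed from library totals and TPM from union exon lengths of GENCODE M21 (GRCm38, the assembly of mm10), which all 44 members have.

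Members, lists and pairs were chosen with earlier results of these data known. All members are named. Each list names its 3 highest genes per length and those at 0, and further genes of it were chosen after their values were seen.

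Each library was tested against the other 2 with edgeR 4.0.16 (R 4.3.3, quasi-likelihood, TMM, filterByExpr, 1 residual degree of freedom), after a check on simulated counts. The simulated counts held no trend on length and no library as far apart as replicate 3, so the check does not cover these features. The SE is the absolute log2 fold change divided by the square root of F. Alternatives were DESeq2 1.42.0, scaling by RLE or none, no filter, a loess trend on length removed through offsets (span 0.3), other limits and lengths, and leaving out replicates. Ratios had an exact sign-flip permutation test (Python 3.11.15, pandas 2.3.3).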

Additional observations from a re-analysis of the deposited data

How the results depend on the processing

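Of the results on levels, the counts of members and of receptors at 1 CPM or more stayed within 1.5 times their value with limits of 0.5 CPM, 2 CPM, 10 counts or 1 TPM, with TMM-scaled CPM and without any 1 replicate (13 to 14 members, 12 to 13 receptors, 1 ligand when a replicate was left out). With 10 counts as the limit, 2 ligands passed in place of 1, since Tnfsf13b has at least 14 counts. All 6 log2 ratios kept their sign with other lengths, with 0.5 counts added and without any 1 replicate. Genes called in replicate 3 numbered 5834 in the analysis reported, 3026 with DESeq2 and 3712 with the trend on length removed, which left 1 member called, Tnfrsf13b, in each. DESeq2 gave an adjusted p for 7 members, and none for Tnfrsf4. For replicate 1, 9 genes were called, 1 with DESeq2 and 4 with the trend removed, and for replicate 2, 6 genes and 1 with DESeq2. Tnfrsf22 was called lower in replicate 3 without scaling (adjusted p = 0.0478). The cause of these differences was not tested. Leaving out a replicate leaves 1 library against 1, with no residual degrees of freedom, so those library tests were not run. No paired analysis was possible because all samples form 1 group. Low counts limit Tnfrsf17 and most ligands.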
